A study of Mus musculus with 16 samples.

Results

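Colon tissue of mice that lack the nuclear receptor corepressor NCoR1 in the intestinal epithelium was compared after 3 days of dextran sulfate sodium (DSS) with tissue of the same genotype from mice on water. The comparison was taken from the labels alone, and uses 8 of the 16 RNA sequencing libraries of the study, 4 labelled DIEC_DSS and 4 labelled DIEC_naive. It asks what the injury changes in a colon whose epithelium has lost this corepressor. Both groups were C57BL/6 mice of 8 weeks that carry the deletion (genotype label "ko"), so the deletion itself is no difference between them. The naive mice drank water, the others 2.5% DSS, and RNA was taken from cleaned, frozen colon tissue. For the DSS mice this was on day 3, and no day is given for the naive mice. Each library combined the RNA of 3 mice, so a group stands for 12 mice, and p-values measure the spread between such pools. The remaining 8 libraries come from F/F mice of the same strain and age, whose genotype label is wild type, 4 with water and 4 with DSS. They were used here for a shared estimate of the spread and to test whether a response differed between genotypes. The labels do not name the Cre driver, and the tissue holds muscle, nerve and immune cells in which the deletion is not labelled to occur.

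Given in drinking water, DSS damages the epithelium of the colon, and it is widely used as a model of colitis. In a healthy colon, stem cells at the crypt base divide under Wnt signals, and their offspring mature into absorptive colonocytes, mucus-making goblet cells and hormone-making enteroendocrine cells as they move up. NCoR1 ties nuclear receptors and other transcription factors to the histone deacetylase HDAC3, which silences their target genes.

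The naive libraries held 19957413 to 29183138 reads on genes and the DSS libraries 22883415 to 30342046. Values below are TMM-scaled reads, which are the authors' deposited values divided by a scaling factor for each library that centres the bulk of genes. Changes are log2(value + 1) differences, DSS minus naive, with the standard error (SE), and adjusted p is the Benjamini-Hochberg value of limma over all 18267 genes tested, called where under 0.05. On the deposited scale the median gene lay -0.24 lower with DSS, against -0.01 here. A second count or p, marked as deposited, is given where that scale changes the reading. On the first principal component of all 16 libraries, with 44.4% of the variance, the DIEC naive libraries lay between -55.6 and -32.7 and the DIEC DSS libraries between 55.5 and 57.7. The second component, with 11.1%, put DIEC_DSS 3 at -62.4 and DIEC_DSS 2 at 17, against -19.6 and -4.7 for the others of that group. These libraries were also at the extremes of the immune cell markers described further on. Colonocyte and goblet cell genes were among the most abundant in every library, with Lypd8, a secreted colonocyte protein that keeps bacteria off the epithelium, at 1.86% of reads in the naive mean and 2.86% with DSS.

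DSS changed a large part of the transcriptome in DIEC colon. Of 18267 genes, 9384 were called (51.4%), of which 4530 rose (24.8%) and 4854 fell (26.6%). Changes of at least 2-fold were seen in 597 of those that rose and in 1191 of those that fell. On the deposited scale, 2250 rose (12.3%) and 7302 fell (40%), and 7104 genes were called in the same direction on both scales, with none in opposite directions. The 4 DSS libraries lay above all 4 naive libraries for 3816 genes (20.9%) and below all of them for 4251 (23.3%). The authors' deposited table calls 3653 genes higher and 3730 lower for the same comparison, and 7226 of these were called here in the same direction. Ncor1, on the minus strand of mm9 chromosome 11 from 62129928 to 62252017 and measured over all exons, had 1696, 1712, 1867 and 1747 in the naive libraries and at 1825, 1787, 1583 and 1774 with DSS. Its groups overlapped, and its change was log2 change -0.01 ± 0.07 SE, adjusted p = 0.9, although the deposited scale gave a fall of 0.26 (adjusted p = 0.0042).

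The genes that rose most included enzymes, chemokines and secreted epithelial proteins. Clca4b, of the family of calcium-activated chloride channel accessory proteins, was at 180.4, 621, 525 and 587 in the naive libraries and at 13028, 11299, 13814 and 3875 with DSS. Every DSS library lay above every naive one, DIEC_DSS 4 being the lowest of them (log2 change 4.45 ± 0.60 SE, adjusted p = 4.9e-05). Nos2, the inducible nitric oxide synthase, was at 32, 39, 79.1 and 73 and then at 619.7, 2721, 1000.2 and 437, with DIEC_DSS 2 highest (log2 change 4.13 ± 0.51 SE, adjusted p = 1.9e-05). Reads of Clca4b could be split with near-identical genes of its family, so its level is uncertain. Aldh1a3, which makes retinoic acid from retinal, was at 166, 148, 296 and 273 and rose to 2154, 739.8, 1973 and 1694 (log2 change 2.84 ± 0.39 SE, adjusted p = 5e-05). Cpn2, the regulatory subunit of carboxypeptidase N, was at 26.7, 30.2, 41.4 and 37.9 and rose to 234, 289, 275 and 177 (log2 change 2.80 ± 0.17 SE, adjusted p = 5.7e-09). Both Aldh1a3 and Cpn2 were without overlap between the groups. Chrdl2, a secreted antagonist of bone morphogenetic proteins, rose from 49.3 ± 3.52 to 277 ± 75.9 (mean ± SD of 4 libraries here and below; log2 change 2.43 ± 0.20 SE, adjusted p = 5.7e-08). Tgm3 and Slpi, which fall outside the rule for the largest rises, also rose. Tgm3, a transglutaminase that crosslinks proteins, rose from 47883 ± 8677 to 119063 ± 12769 (log2 change 1.32 ± 0.16 SE, adjusted p = 2.5e-06). Slpi, a secreted inhibitor of neutrophil proteases, rose from 649 ± 163 to 3129 ± 1135 (log2 change 2.23 ± 0.39 SE, adjusted p = 0.00033). The 15 largest falls that met the rule for named genes were all pancreatic enzymes or their cofactors. They are treated further on, with other transcripts typical of tissue outside the colon.

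**Figure D1:**
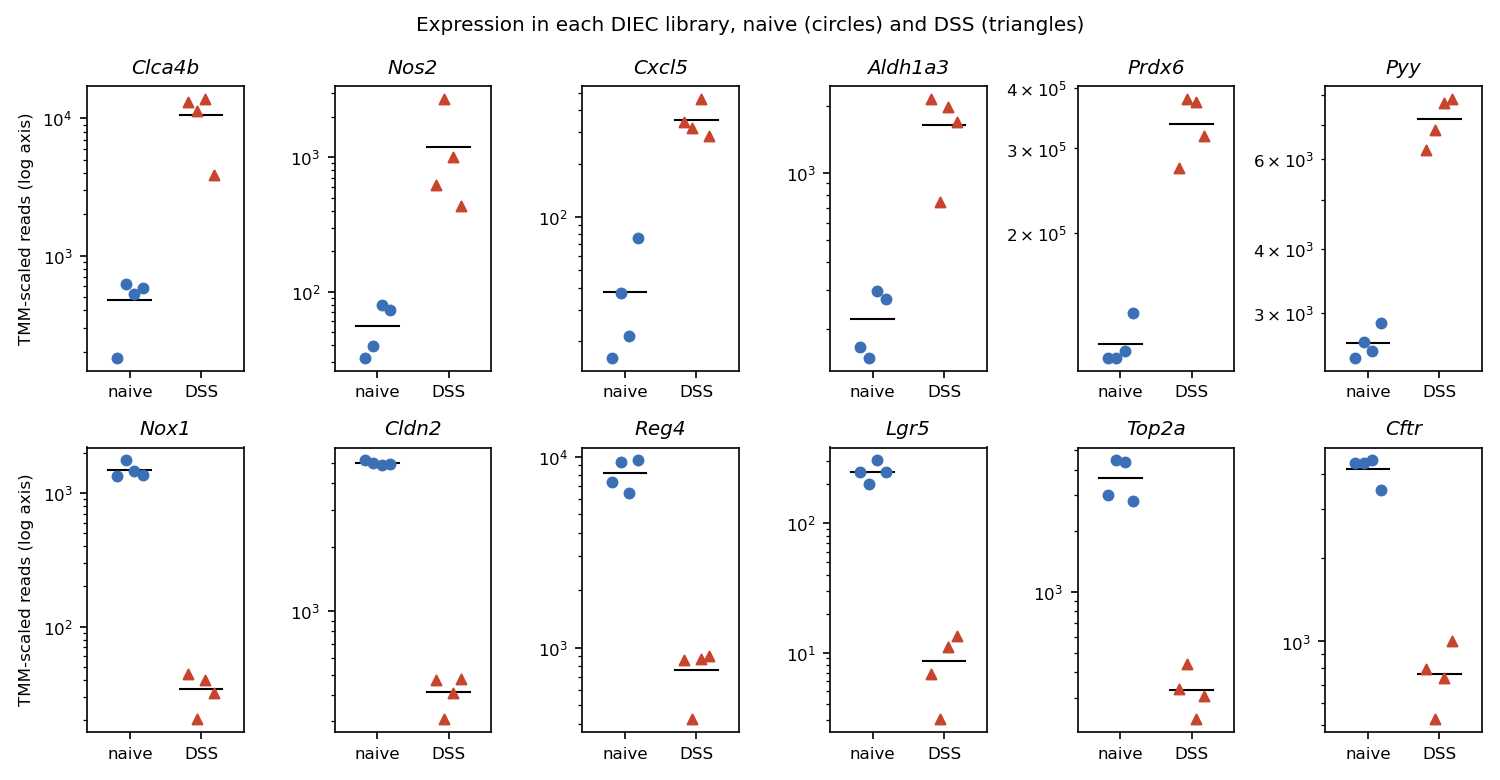
TMM-scaled reads (log axis) of 12 genes in each of the 4 DIEC naive (circles) and 4 DIEC DSS (triangles) libraries, with a bar at the group mean. The groups do not overlap for any of the 12 genes, 6 of which are higher and 6 lower with DSS.

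The epithelial oxidases moved apart. Nox1, the catalytic subunit of the NADPH oxidase of colon crypts, was at 1337, 1755, 1470.1 and 1371 in the naive libraries and at 44.6, 20.2, 39.7 and 32.1 with DSS (mm9 chromosome X; log2 change -5.45 ± 0.48 SE, adjusted p = 1.3e-06). Every DSS library was far below every naive one. Its activator subunit Noxa1 fell from 1797 ± 102 to 673 ± 102 (log2 change -1.43 ± 0.12 SE, adjusted p = 6.8e-08). Its organiser subunit Noxo1 was at 4139.7 ± 406 and 4386 ± 412, with overlapping groups (log2 change 0.08 ± 0.09 SE, adjusted p = 0.48). Duoxa2, the maturation factor of the surface oxidase DUOX2, was at 398, 658, 677 and 683 and rose to 1258, 1764, 1405 and 1193 without overlap (log2 change 1.23 ± 0.28 SE, adjusted p = 0.0022). Duox2 itself rose from 2003 ± 403 to 3757 ± 979 (log2 change 0.89 ± 0.27 SE, adjusted p = 0.013), a call that was lost on the deposited scale (adjusted p = 0.055). Of the peroxide-removing enzymes, Prdx6 took 0.465% of reads in the naive mean and 1.12% with DSS. Its values were 110222, 110045, 113972 and 136552 in the naive libraries and 273262, 380259.6, 373869 and 318813 with DSS, each DSS library lying above every naive one (log2 change 1.51 ± 0.14 SE, adjusted p = 1.6e-07). Gpx2, the gastrointestinal glutathione peroxidase, fell from 9197 ± 1230.1 to 4071 ± 574 (log2 change -1.18 ± 0.18 SE, adjusted p = 7.6e-05), and the glutathione transferase Gsta3 from 778 ± 85.1 to 166 ± 41.1 (log2 change -2.25 ± 0.23 SE, adjusted p = 1.6e-06). Hmox1, which breaks down heme, was at 257, 280.3, 219.7 and 481 and at 529, 1801, 951 and 731 (log2 change 1.61 ± 0.45 SE, adjusted p = 0.009). Of the whole list of 35 NRF2 target and glutathione genes, 12 rose and 8 fell (9 and 15 on the deposited scale), with a median change of 0.06 against -0.01 over all genes. Of all genes tested 24.8% rose and 26.6% fell (12.3% and 40% on the deposited scale), and the list is not read as changed.

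Several chemokines that draw neutrophils rose from low levels. Cxcl1 was at 11.7, 12.4, 11.3 and 13.3 in the naive libraries and at 45.7, 68.8, 68.4 and 81.8 with DSS (log2 change 2.32 ± 0.25 SE, adjusted p = 7.1e-07). Cxcl2 was at 7.47, 0, 2.51 and 1.9 and then at 33.2, 43.5, 60.2 and 23.8 (log2 change 3.68 ± 0.64 SE, adjusted p = 0.00012), and Cxcl5 at 16, 37.3, 21.3 and 75.9 and then at 344, 317, 464 and 286 (log2 change 3.42 ± 0.36 SE, adjusted p = 1.8e-06). No DSS library overlapped a naive one for any of these chemokines. Of 14 genes of the neutrophil chemokine and growth factor list 6 rose and 1 fell, with a median change of 1.09 against -0.01 over all genes, though voom on the recovered reads raised 3. The promoters of Cxcl1 and Cxcl2 are shown because these neighbouring genes moved together. They are the 250 bases upstream of the start on mouse chromosome 5 in RefSeq's GRCm38.p6, plus strand, chr5:90890995-90891244 for Cxcl1 and chr5:90903649-90903898 for Cxcl2. Capitals mark matches on either strand to GGNNTTTCC, a loose form of the NF-kB site.
Cxcl1: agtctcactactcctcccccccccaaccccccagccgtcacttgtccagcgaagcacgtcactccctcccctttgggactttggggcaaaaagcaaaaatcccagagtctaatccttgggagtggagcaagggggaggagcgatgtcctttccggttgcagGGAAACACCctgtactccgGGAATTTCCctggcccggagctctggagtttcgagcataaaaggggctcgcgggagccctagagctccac
Cxcl2: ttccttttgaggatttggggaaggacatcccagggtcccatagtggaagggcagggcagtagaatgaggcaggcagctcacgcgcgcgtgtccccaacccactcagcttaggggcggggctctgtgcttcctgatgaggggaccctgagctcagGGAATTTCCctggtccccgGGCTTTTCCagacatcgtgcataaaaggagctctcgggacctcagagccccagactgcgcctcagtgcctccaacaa
Each holds 2 matches, at 89 and 70 bases before the start in Cxcl1 and at 96 and 77 in Cxcl2. Of the 14009 tested genes with an upstream sequence in the RefSeq table, 725 (5.18%) hold a match. Of 11 neutrophil chemokine and growth factor genes with a sequence 3 did, and of 29 genes of the TNF and NF-kB list 11 did. A match is a description of letters and shows no binding. The share was 4.77% of promoters of genes that rose, 5.45% of those that fell and 5.23% of those not called.

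Genes of the NF-kB pathway and its brakes rose together. Of 35 genes of TNF, interleukin-1 and NF-kB feedback, 23 rose and none fell (15 and 1 on the deposited scale), with a median of 0.73. Socs3, which restrains signalling by interleukin-6 and related cytokines, was at 254, 302, 239 and 246 and rose to 1059.9, 1827, 727 and 1447 (log2 change 2.20 ± 0.24 SE, adjusted p = 3.8e-06). Zc3h12a, an RNase that destroys inflammatory transcripts, rose from 841 ± 70.6 to 2033 ± 195 (log2 change 1.27 ± 0.10 SE, adjusted p = 3.6e-08) and Tnfaip3, a ubiquitin-editing brake on NF-kB, from 3102 ± 374 to 5466 ± 873 (log2 change 0.81 ± 0.10 SE, adjusted p = 4.2e-06). Tnf was at 55.5, 59.4, 40.2 and 51.2 and at 162, 356, 152 and 192, every DSS library being higher (log2 change 1.97 ± 0.21 SE, adjusted p = 6.9e-07). Mean levels of this list were highest in DIEC_DSS 2 and lowest in DIEC_DSS 3 among the DSS libraries, and 19 members rose without the former and 28 without the latter. Of 35 genes of inducible epithelial defence 20 rose and 4 fell, with a median of 0.75. Lbp, which hands bacterial lipopolysaccharide to its receptor, was at 244, 285, 239.8 and 304 in the naive libraries and at 1380.0, 1273, 1389 and 1111 with DSS (log2 change 2.26 ± 0.12 SE, adjusted p = 1.3e-09). Ang4, an angiogenin secreted by goblet and Paneth cells, fell from 4599.8 ± 2201 to 477 ± 236 (log2 change -3.29 ± 0.76 SE, adjusted p = 0.0029).

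Genes used by dividing cells fell throughout. All 40 DNA replication genes and all 34 mitosis genes fell, on both scales, with median changes of -1.76 and -3.06. Top2a, the topoisomerase of dividing cells, was at 2984, 4436, 4380.3 and 2805 in the naive libraries and at 330.4, 438, 234 and 305 with DSS (log2 change -3.48 ± 0.38 SE, adjusted p = 8.5e-06), and Cdk1, the kinase that starts mitosis, at 946, 1403, 1176 and 823 and at 109.8, 124, 88.9 and 96.2 (log2 change -3.34 ± 0.38 SE, adjusted p = 9.7e-06). The DSS libraries held a small part of the naive level for both, with no overlap. In bulk tissue, fewer cells of a type and less RNA per cell cannot be told apart. The replicative helicase subunits Mcm5 and Mcm6 fell from 1249.7 ± 258 to 197 ± 113 (log2 change -2.79 ± 0.41 SE, adjusted p = 8.1e-05) and from 1766 ± 323 to 262 ± 82.4 (log2 change -2.78 ± 0.29 SE, adjusted p = 4.6e-06). Their upstream 250 bases are shown as 2 members of the list that hold the motif below, from RefSeq's GRCm38.p6, chr8:75109259-75109508 on the plus strand for Mcm5 and chr1:128359706-128359955 on the minus strand for Mcm6. Capitals mark matches on either strand to TTTNNCGC, a loose form of the E2F site, and touching matches run together.
Mcm5: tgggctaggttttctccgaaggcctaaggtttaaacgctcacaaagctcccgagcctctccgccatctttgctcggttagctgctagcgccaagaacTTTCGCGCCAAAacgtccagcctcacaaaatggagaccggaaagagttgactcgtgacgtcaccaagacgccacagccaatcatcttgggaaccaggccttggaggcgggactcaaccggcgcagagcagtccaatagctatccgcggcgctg
Mcm6: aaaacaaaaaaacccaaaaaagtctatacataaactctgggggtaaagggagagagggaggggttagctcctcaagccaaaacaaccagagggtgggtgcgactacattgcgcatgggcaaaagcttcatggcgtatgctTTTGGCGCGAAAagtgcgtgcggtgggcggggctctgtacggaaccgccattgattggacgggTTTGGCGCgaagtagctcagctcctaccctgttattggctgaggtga
The Mcm5 window holds 2 overlapping matches and the Mcm6 window 3. Of all 14009 upstream sequences, 886 (6.32%) hold a match. Among the 33 replication genes with a sequence, 9 did, and among the 30 mitosis genes, 2 did. The share was 8.34% of genes that fell, 5.35% of genes that rose and 5.67% of those not called.

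Stem cell and Wnt target genes were mixed, with Lgr5 and Axin2 among those that fell. Of 28 such genes 13 fell and 3 rose (18 and 1 on the deposited scale), with a median of -0.45. Lgr5, a receptor used as the marker of crypt stem cells, was at 245, 199, 304 and 246 in the naive libraries and at 6.86, 3.04, 10.9 and 13.4 with DSS (log2 change -4.84 ± 0.64 SE, adjusted p = 3e-05). Axin2, a feedback target of Wnt signalling, was at 482, 393, 499.7 and 497 and at 107, 83, 93 and 56.9 (log2 change -2.48 ± 0.26 SE, adjusted p = 2.3e-06). Neither gene had overlapping groups. Of 33 ribosome biogenesis genes 27 fell and none rose, with a median of -0.86. Nop58, a core protein of the complexes that methylate ribosomal RNA, fell from 2525 ± 131 to 991 ± 119 (log2 change -1.36 ± 0.10 SE, adjusted p = 2.9e-08), nucleolin, Ncl, from 10670.1 ± 732 to 5517 ± 262 (log2 change -0.95 ± 0.09 SE, adjusted p = 2e-07), and Myc, which drives this programme, from 805 ± 110.4 to 406 ± 55.9 (log2 change -0.99 ± 0.14 SE, adjusted p = 1.8e-05). Hmga2, a chromatin protein of growing cells, was at 305, 227, 249 and 200.1 and at 37.7, 23.3, 38.3 and 27.9 (log2 change -2.92 ± 0.23 SE, adjusted p = 5e-08).

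Growth signals from the tissue did not move as a single block. Ihh, the hedgehog ligand of differentiated colonocytes, rose from 1957 ± 279 to 3381 ± 271 (log2 change 0.80 ± 0.11 SE, adjusted p = 1.2e-05). The hedgehog target Gli1, which marks stromal cells that receive the signal, was at 303, 257, 235 and 295 and at 86.9, 47.6, 39.7 and 63.1 (log2 change -2.24 ± 0.21 SE, adjusted p = 1.7e-07), and the receptor and target Ptch1 fell from 551 ± 101 to 285 ± 61 (log2 change -0.95 ± 0.17 SE, adjusted p = 0.00011). Bmp2, a ligand of the upper crypt, rose from 1547 ± 316 to 3889 ± 571 (log2 change 1.34 ± 0.20 SE, adjusted p = 5.3e-05). Of 24 EGF receptor ligands, receptors and regulators 14 rose and 5 fell, with a median of 0.58. The ligand Areg was at 949, 1009, 849.9 and 1302 and rose to 2525, 3011, 2357 and 4876 (log2 change 1.59 ± 0.24 SE, adjusted p = 8.7e-05), and Hbegf rose from 524 ± 33 to 1806 ± 603 (log2 change 1.73 ± 0.25 SE, adjusted p = 4.4e-05). The transcription factors Etv4 and Etv5, targets of receptor tyrosine kinase signalling, fell instead, Etv4 from 507 ± 120.1 to 50.8 ± 19.7 (log2 change -3.33 ± 0.33 SE, adjusted p = 1.9e-06) and Etv5 from 330.0 ± 61 to 94.2 ± 12.9 (log2 change -1.79 ± 0.18 SE, adjusted p = 3e-07). Of 31 genes of regenerating epithelium 18 rose and 3 fell, with a median of 0.73. Ly6a, a surface marker of repairing colon epithelium that belongs to a family of near-identical genes, rose from 7886 ± 2412 to 28689 ± 7578 (log2 change 1.87 ± 0.26 SE, adjusted p = 4.5e-05), and Plaur, the urokinase receptor, from 188 ± 13.6 to 451 ± 70.6 (log2 change 1.25 ± 0.15 SE, adjusted p = 1.8e-06). Of 27 immediate early genes 23 rose and none fell (20 on the deposited scale), with a median of 1.02 and the highest mean level in DIEC_DSS 4. Fosl1, a partner of JUN, was at 10.7, 31.9, 33.9 and 56.9 and at 134, 74.9, 93 and 293 (log2 change 2.13 ± 0.48 SE, adjusted p = 0.0018).

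**Figure D2:**
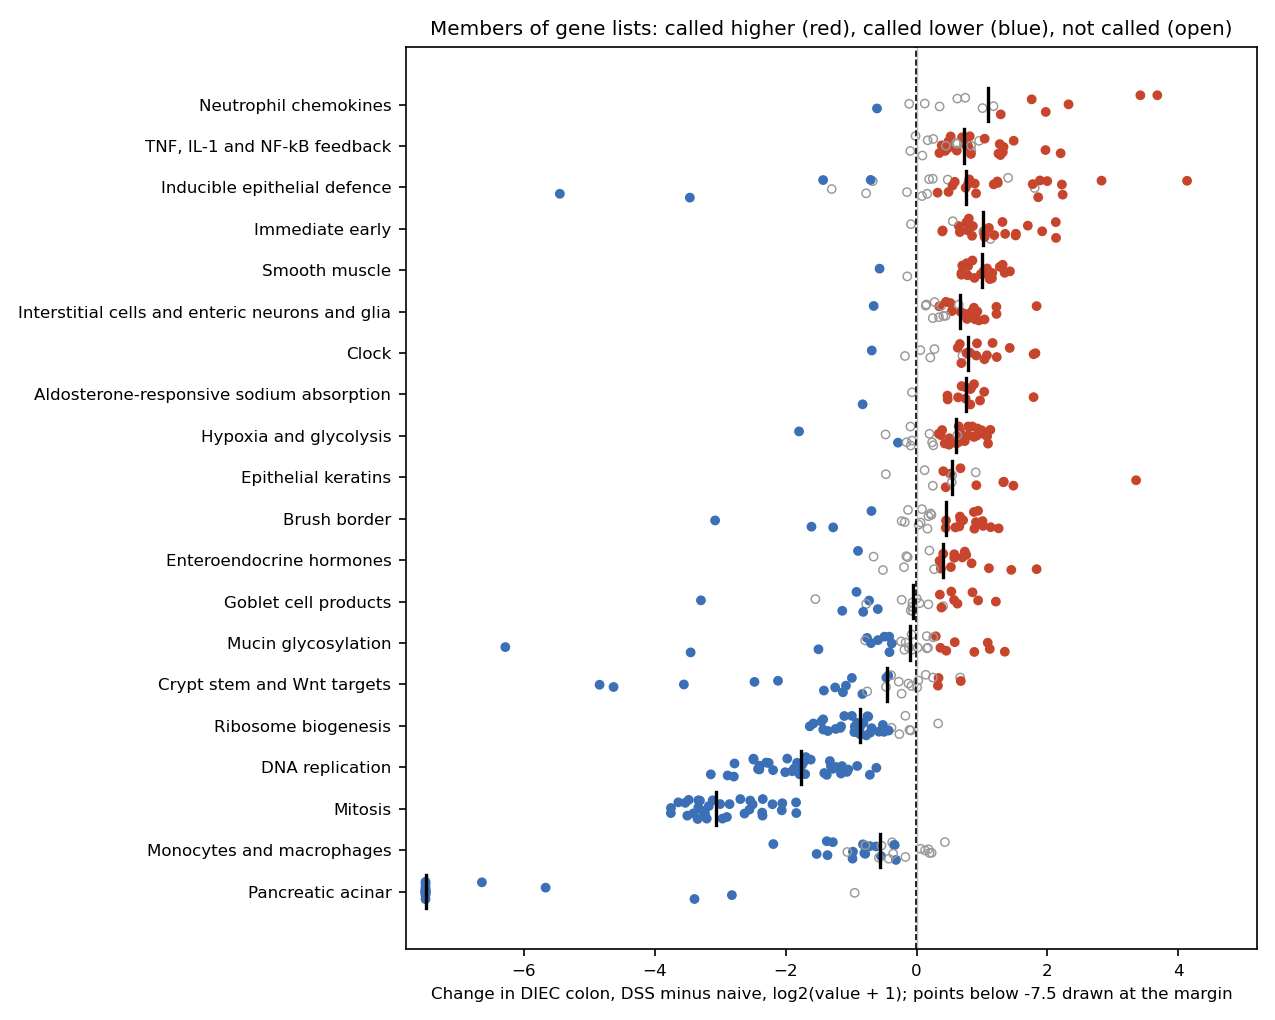
Change with DSS in DIEC colon, log2(value + 1), of every tested member of 20 gene lists (1 point per gene), filled where called, with the list median as a bar. The dashed line is the median of all 18267 genes tested. The DNA replication and mitosis lists lie entirely below 0, and most of the pancreatic acinar list is beyond the left edge and drawn at the margin.

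Cftr, Kcnn4 and Slc12a2, which serve chloride secretion, fell, while most genes of sodium absorption rose. Cftr, the apical chloride channel of crypt cells, was at 4386, 4376, 4479 and 3513 in the naive libraries and at 796, 524, 739 and 1007 with DSS (log2 change -2.48 ± 0.16 SE, adjusted p = 3.5e-08). Kcnn4, the potassium channel that sustains chloride exit, was at 954, 857, 1008 and 1080.3 and at 442, 396, 327 and 387 (log2 change -1.33 ± 0.13 SE, adjusted p = 2e-07). Slc12a2, the basolateral cotransporter that loads the cells with chloride, fell from 12570.1 ± 970.3 to 4757 ± 858 (log2 change -1.41 ± 0.12 SE, adjusted p = 8.3e-08). All these falls were without overlap of the groups. On the absorptive side, of 15 aldosterone-responsive sodium absorption genes 13 rose and 1 fell (9 and 2 on the deposited scale), with a median of 0.75. Scnn1a, a subunit of the epithelial sodium channel, was at 4973, 5452, 5515 and 6621 and rose to 10482, 11700.5, 11646 and 10202 (log2 change 0.97 ± 0.09 SE, adjusted p = 2e-07). Hsd11b2, which protects the mineralocorticoid receptor from glucocorticoids, rose from 8249.7 ± 998 to 15149 ± 1709 (log2 change 0.88 ± 0.10 SE, adjusted p = 7e-07) and Slc4a4, a basolateral bicarbonate cotransporter, from 4072 ± 371 to 10013 ± 2155 (log2 change 1.27 ± 0.18 SE, adjusted p = 3.9e-05). Of 30 absorptive colonocyte transport genes 13 rose and 7 fell (9 and 7 on the deposited scale), with a median of 0.33. The share of this list that fell was near the 26.6% of all genes, of which 24.8% rose.

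The claudins named by the rule included pore-forming members that fell and a sealing member that rose. Cldn2, which forms a paracellular cation and water pore, was at 5139.9, 4999, 4911 and 4934 in the naive libraries and at 469.9, 307, 409 and 474 with DSS (log2 change -3.61 ± 0.33 SE, adjusted p = 1.7e-06). Cldn15, another pore-forming claudin, was at 2157, 2358, 2600.1 and 1694 and at 483, 431, 450.1 and 512 (log2 change -2.21 ± 0.20 SE, adjusted p = 8.2e-07). Both lost most of their reads in every DSS library. Cldn3, a sealing claudin, rose from 9915 ± 1849.7 to 20440.1 ± 2162 (log2 change 1.06 ± 0.12 SE, adjusted p = 1.3e-06), and Cldn8, likewise sealing, from 6419.8 ± 523 to 11895 ± 1660.2 (log2 change 0.88 ± 0.16 SE, adjusted p = 0.00016). Over the 32 claudin and junction genes 17 rose and 7 fell, 4 without DIEC_DSS 2 and likewise without DIEC_DSS 4, with a median of 0.42. Falls were no more frequent in this list than over all genes, of which 26.6% fell and 24.8% rose. Of 15 epithelial keratins 9 rose and none fell, with a median of 0.54. Krt36, a hair-type keratin, was at 19.2, 28.4, 38.9 and 17.1 and at 169, 435, 335 and 186 (log2 change 3.35 ± 0.34 SE, adjusted p = 9e-07). Of 29 brush border genes 15 rose and 4 fell (12 and 6 on the deposited scale), with a median of 0.45.

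Goblet cell products as a list stayed near the background, in which 24.8% of all genes rose and 26.6% fell, while single members lay far from it. Of 25 goblet cell products 8 rose and 6 fell (3 and 11 on the deposited scale), with a median of -0.06. Fcgbp, a large mucus protein, was at 83881, 77774, 83702 and 71287 and rose to 222572, 159076, 189686 and 166779.9 (log2 change 1.21 ± 0.21 SE, adjusted p = 0.00017), and Tff3, the trefoil peptide of mucus, rose from 31828 ± 8537 to 59685 ± 6094 (log2 change 0.94 ± 0.21 SE, adjusted p = 0.0018). Muc2, the main gel-forming mucin, was at 88396, 129879, 157159 and 80591 and at 138097, 125818, 159443 and 161314, with overlapping groups (log2 change 0.40 ± 0.29 SE, adjusted p = 0.27). Reg4, a lectin of deep crypt secretory cells, was at 7400.3, 9379, 6422 and 9539 and at 864, 420.0, 873 and 902, the groups lying far apart (log2 change -3.46 ± 0.41 SE, adjusted p = 1.6e-05). Muc13, a mucin of the cell surface, rose from 99712 ± 11929 to 217853 ± 16269.7 (log2 change 1.13 ± 0.12 SE, adjusted p = 3.8e-07). Of 30 mucin glycosylation genes 8 rose and 10 fell (5 and 15 on the deposited scale), with a median of -0.10. These shares are also close to those over all genes and are not read as a change of the list. Single members with large falls are given as genes. A4gnt, which caps mucin chains with alpha-linked N-acetylglucosamine, was at 205, 176, 168 and 131 in the naive libraries and at 1.14, 0, 4.1 and 1.03 with DSS, about 5 reads in all (log2 change -6.28 ± 0.52 SE, adjusted p = 3.7e-07). B3gnt6, which builds core 3 chains, was at 779, 753, 786 and 426 and at 45.7, 51.6, 62.9 and 86.9 (log2 change -3.45 ± 0.38 SE, adjusted p = 4.2e-06). St6galnac2, which adds sialic acid to mucin chains, fell from 1989 ± 111 to 704 ± 48.7 (log2 change -1.50 ± 0.08 SE, adjusted p = 1.3e-09).

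Many enteroendocrine hormone and granule genes rose, while Neurog3, an early factor of that lineage, nearly vanished. Of 21 hormone and granule genes 13 rose and 1 fell (7 and 3 on the deposited scale), with a median of 0.41. Pyy, the peptide YY of L cells, was at 2454, 2641, 2528 and 2876 and rose to 6253, 6836, 7742 and 7868 (log2 change 1.45 ± 0.10 SE, adjusted p = 1.6e-08). Tac1, the precursor of substance P in enterochromaffin cells and neurons, was at 427, 604, 453 and 383 and rose to 1689, 1667, 1735 and 1491 (log2 change 1.83 ± 0.14 SE, adjusted p = 5.4e-08). Chga, the granule protein chromogranin A, rose from 1276 ± 57.6 to 2755 ± 278 (log2 change 1.11 ± 0.08 SE, adjusted p = 2.3e-08). Each was higher in every DSS library than in any naive one. Neurog3, which commits progenitors to this lineage, was at 33.1, 38.1, 47.7 and 53.1 in the naive libraries and at 1.14, 1.02, 0 and 1.03 with DSS, which is 3 reads in all against 168 (adjusted p = 2.3e-08). It does not stand for the factors of the lineage as a list. Of 16 such transcription factors 3 rose and 4 fell (0 and 6 on the deposited scale), with a median of 0.21. Over all genes 24.8% rose and 26.6% fell.

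Among metabolic lists, glycolysis held many genes that rose, while other lists held members of both directions, as did all genes. Of 38 hypoxia-inducible and glycolytic genes 27 rose and 2 fell (20 and 6 on the deposited scale), with a median of 0.61. Slc2a1, the glucose carrier GLUT1, was at 3731, 4194, 4506 and 4936 and rose to 8438, 8475, 8510.5 and 8991 (log2 change 0.99 ± 0.09 SE, adjusted p = 9.6e-08), and hexokinase Hk2 rose from 6217 ± 1310.3 to 13075 ± 1419 (log2 change 1.09 ± 0.13 SE, adjusted p = 1.5e-06). Mlxipl, the glucose-sensing transcription factor ChREBP, was at 1094, 1179.7, 1018 and 1039.5 and at 318, 301, 242 and 298 (log2 change -1.90 ± 0.11 SE, adjusted p = 3e-09). Otc, which makes citrulline from ornithine and carbamoyl phosphate in gut mitochondria, and Cps1, which makes the carbamoyl phosphate, fell together. Otc was at 386, 545, 416 and 308 and at 17.1, 16.2, 19.2 and 22.8 (log2 change -4.37 ± 0.21 SE, adjusted p = 2.6e-10) and Cps1 at 541, 668, 564 and 609 and at 77.8, 40.5, 116 and 65.2 (log2 change -3.07 ± 0.25 SE, adjusted p = 1.7e-07). All DSS libraries were far below the naive ones for both. Fabp2, a fatty acid carrier of enterocytes, was at 4094, 7192, 5661 and 2401 and at 408, 444, 450.1 and 518 (log2 change -3.30 ± 0.36 SE, adjusted p = 8.3e-06). Of 44 xenobiotic and bile acid genes 8 rose and 13 fell (4 and 21 on the deposited scale), with a median of -0.06. The shares of that list lie near the 24.8% higher and 26.6% lower of all genes. Of 33 fatty acid oxidation and ketogenesis genes 12 rose and 10 fell (9 and 17 on the deposited scale), with a median of 0. Of 40 oxidative phosphorylation genes 10 rose and 9 fell (4 and 24 on the deposited scale), with a median of -0.02. The oxidative phosphorylation shares lie close to those over all genes (12.3% higher and 40% lower on the deposited scale). Neither this list nor that of fatty acid oxidation is read as changed. Of 28 LXR target and lipogenesis genes 9 rose and 3 fell (4 and 8 on the deposited scale), with a median of 0.03, and 5 fell without DIEC_DSS 3. Ces1e, a carboxylesterase with close paralogs, fell from 371 ± 66.4 to 66.2 ± 18.4 (log2 change -2.50 ± 0.18 SE, adjusted p = 2e-08). Of 20 clock genes 14 rose and 1 fell, with a median of 0.79, and the repressor Per1 rose from 1717 ± 286 to 3986 ± 347 (log2 change 1.23 ± 0.16 SE, adjusted p = 9.1e-06). The labels do not give the time of day of sampling. Of 25 glucocorticoid-responsive genes 14 rose and 1 fell (10 and 3 on the deposited scale), with a median of 0.49.

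Counts of immune genes that rose changed with the library left out. Of 30 type I interferon genes 15 rose and none fell, but 7 rose without DIEC_DSS 2, 7 without DIEC_naive 4 and 6 on the deposited scale. Of 25 interferon gamma targets 13 rose and none fell, against 7 without DIEC_DSS 2 and 21 without DIEC_DSS 3. Irf7, the main regulator of type I interferon genes, was at 2364, 2344, 2104 and 1419.8 and at 4144, 11368, 3373 and 4531, with DIEC_DSS 2 above the others (log2 change 1.36 ± 0.44 SE, adjusted p = 0.02). That call was lost without DIEC_DSS 2 (adjusted p = 0.055) and without DIEC_naive 4 (adjusted p = 0.057). Gbp2, a GTPase induced by interferon gamma with close paralogs, was at 1707, 2003, 1508 and 1173 and at 5773, 4281, 2093 and 5919 (log2 change 1.41 ± 0.40 SE, adjusted p = 0.0098). The pan-leukocyte marker Ptprc was at 1139.8, 874, 1195 and 823 in the naive libraries and at 606, 2522, 279 and 1063 with DSS, and its groups overlapped widely (log2 change -0.28 ± 0.51 SE, adjusted p = 0.68). Among the DSS libraries DIEC_DSS 2 was highest and DIEC_DSS 3 lowest. The mean log2 level of the 24 B and plasma cell genes, relative to the 8 libraries, was -0.39, 1.75, -2.84 and 0.77 in DIEC_DSS 1 to 4 and 0.54, -0.25, 0.44 and -0.01 in DIEC_naive 1 to 4. The part of these cells in the interferon and NF-kB results was not tested.

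Of 30 monocyte and macrophage genes 15 fell and none rose (21 on the deposited scale), and without DIEC_DSS 3 11 fell and 3 rose, with a median of -0.56. Adgre1, which encodes the F4/80 antigen, was at 540.0, 547, 424 and 533 and at 311, 200.4, 179 and 171 (log2 change -1.28 ± 0.17 SE, adjusted p = 7.2e-06). Cd163, the haemoglobin scavenger receptor of resident macrophages, was at 247, 163, 402 and 425 and at 97.2, 116, 141 and 94.2 (log2 change -1.37 ± 0.26 SE, adjusted p = 0.00034). Neither overlapped between the groups. Mrc1, the mannose receptor of tissue macrophages, fell from 1302 ± 139 to 747 ± 158 (log2 change -0.82 ± 0.13 SE, adjusted p = 4.1e-05). Of 20 neutrophil genes 5 rose and 2 fell, 3 rising with voom on the recovered reads. The share that rose was near the 24.8% of all genes and is not read as a change of the list. The neutrophil granule gene Ngp had at most 1.03 scaled reads in any DIEC library, and S100a8, a calprotectin subunit, was at 3.2, 7.98, 1.25 and 1.9 and at 19.4, 34.4, 10.9 and 12.4 (log2 change 2.22 ± 0.45 SE, adjusted p = 0.00039). Reads named for the neutrophil marker Ly6g ran from 5679.7 to 33893 in the same libraries, and they belong to a family of near-identical genes. Of 20 class I presentation genes 12 rose and 1 fell, against 1 and 0 of 14 class II genes, of which 7 rose without DIEC_DSS 3.

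**Figure D3:**
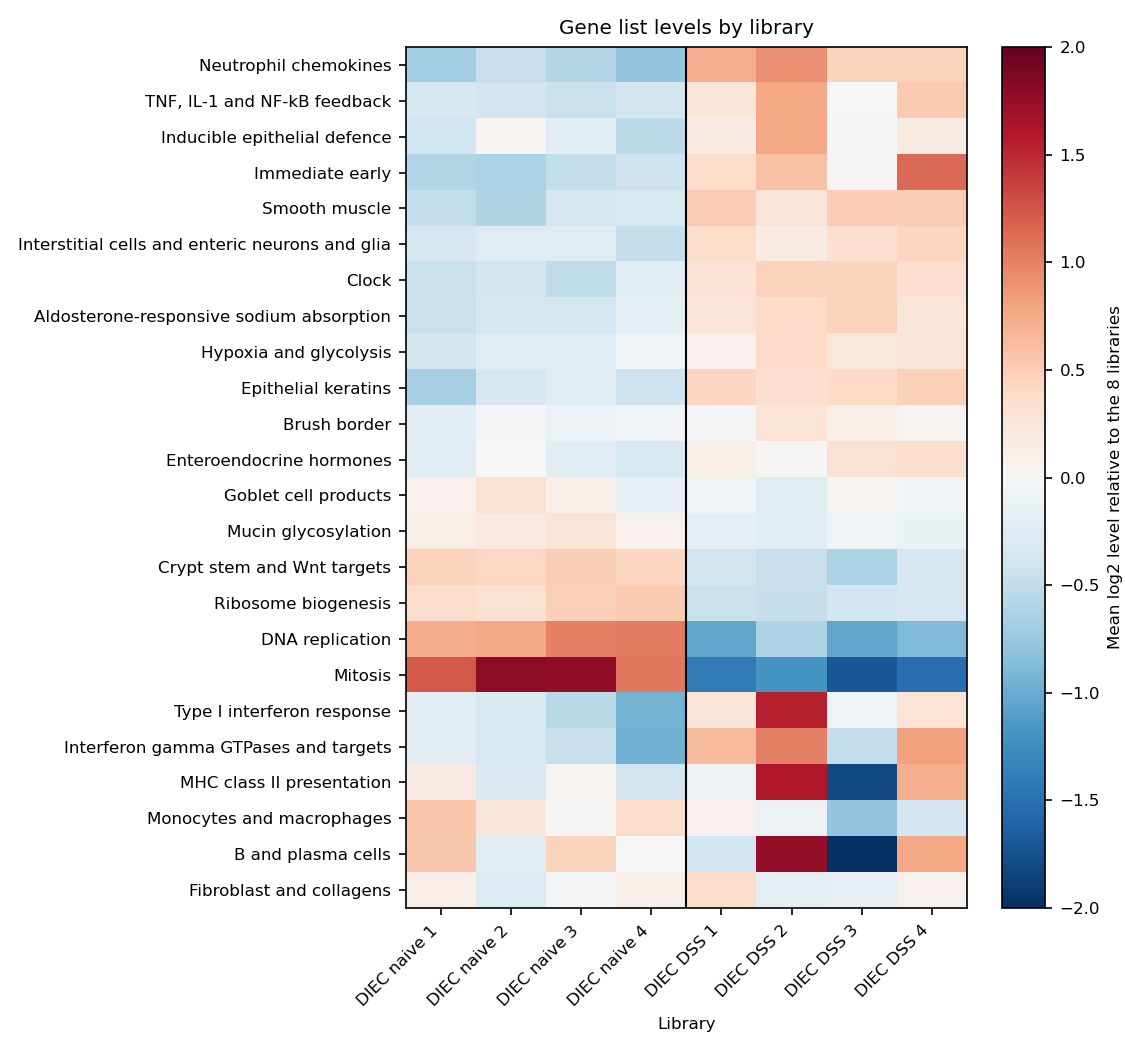
Mean log2 level of each of 24 gene lists in the 4 DIEC naive and 4 DIEC DSS libraries, relative to the mean of the 8 libraries (colour, limited to between -2 and 2). DNA replication, mitosis, chemokine and smooth muscle genes separate the groups in every library, whereas lymphoid genes are highest in DIEC_DSS 2 and lowest in DIEC_DSS 3.

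Genes of the muscle layers and their nerves rose. Of 22 smooth muscle genes 20 rose and 1 fell (20 and 2 on the deposited scale), with a median of 1.00. Des, the muscle intermediate filament desmin, was at 17107, 15754, 21028 and 21734 and rose to 46217, 39886, 50250.1 and 55508 (log2 change 1.35 ± 0.14 SE, adjusted p = 3.7e-07), and the smooth muscle actin Actg2 from 15828 ± 2319.6 to 39141 ± 2928 (log2 change 1.31 ± 0.13 SE, adjusted p = 2.1e-07). Of 29 genes of interstitial cells, enteric neurons and glia 19 rose and 1 fell (15 and 1 on the deposited scale), with a median of 0.67. The neuronal nitric oxide synthase Nos1 rose from 418 ± 39 to 798 ± 90.3 (log2 change 0.93 ± 0.10 SE, adjusted p = 9.7e-07). Kit, a receptor listed both for interstitial cells of Cajal and for mast cells, fell from 1833 ± 379.8 to 1152 ± 129.7 (log2 change -0.65 ± 0.13 SE, adjusted p = 0.0004). Which of these cells its fall belongs to was not tested. Of 19 mast cell and eosinophil genes 6 fell and none rose, against 26.6% lower and 24.8% higher of all genes. In contrast to muscle, the 37 fibroblast and collagen genes held 8 that rose, a share near the 24.8% of all genes. In that list 3 fell, against 26.6% of all genes, and the median was 0.14 (2 rose and 10 fell on the deposited scale). Without DIEC_DSS 2 13 rose, and 9 fell without DIEC_DSS 1 and 6 without DIEC_naive 2. The share of muscle against mucosa in each library was not measured apart from these genes. Transcripts typical of tissue outside the colon were also present. All DIEC naive libraries held pancreatic acinar transcripts, at 2.6, 0.413, 0.126 and 0.0718% of reads for the list of 19 genes, and the DSS libraries at most 0.0428%. Of the 17 genes tested 16 fell and none rose, but voom on the recovered reads called 2 lower. In F/F colon 16 of this list were called lower with DSS as well, with a median of -7.41. Adipocyte genes were at a mean log2 level of 0.52, 0.6, 0.46 and 0.4 in DIEC_naive 1 to 4 and of 0.37, -1.03, 0.22 and -1.55 in DIEC_DSS 1 to 4. Of 14 such genes 4 fell and 3 rose (8 and 1 on the deposited scale). The counts of 4 and 3 are near the 26.6% lower and 24.8% higher of all genes. Only 1 of the 14 fell without DIEC_DSS 2 or without DIEC_DSS 4, and 2 without DIEC_naive 1 or without DIEC_naive 2. The source of the pancreatic and adipocyte transcripts was not tested, nor was their part in the results for lipid genes.

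The response differed measurably from that of F/F colon for few genes. Over all genes tested, which are not independent of each other, the changes in DIEC and in F/F colon had a Pearson correlation of 0.814 and a Spearman correlation of 0.765, from separate libraries. Of the 9384 genes called in DIEC colon 72% were also called in F/F colon, which is 81.5% of the 8282 called there, and of these 6752 genes 6724 moved in the same direction. A difference between the genotypes was called for 116 of 18267 genes (0.635%), 44 with a higher change in DIEC colon (0.241%) and 72 with a lower one (0.394%). This count rose to 664 on the deposited scale and 366 with DESeq2, and was 66 with edgeR and 59 with voom on the recovered reads. It was 51, 52, 69, 318 and 56 without FF_naive 2, FF_naive 3, FF_DSS 1, FF_DSS 2 and FF_DSS 4. It was 60, 66, 68 and 67 without DIEC_naive 1, DIEC_naive 3, DIEC_DSS 2 and DIEC_DSS 4. Of the 116, 101 were called for DSS in DIEC colon and 50 of these not in F/F colon.

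Lbp had the smallest adjusted p of the difference. It was at 244, 285, 239.8 and 304 and 1380.0, 1273, 1389 and 1111 in naive and DSS libraries of DIEC colon, as above, and at 243, 266, 283 and 219.7 and 407, 295, 331 and 275 in those of F/F colon. The 4 DIEC DSS libraries lay apart from the other 12 (difference 1.90 ± 0.17 SE, adjusted p = 2.8e-05). Prdm1, a repressor of transcription in plasma cells and maturing epithelium, rose to 269.8, 287, 309 and 296 from 169, 164, 197 and 188 in DIEC colon and was at 141, 153, 166 and 133 after 227, 251, 235 and 221 in F/F colon. It thus moved in opposite directions in the genotypes, by 0.70 and by -0.65 (difference 1.35 ± 0.14 SE, adjusted p = 0.00015). Plch2, a phospholipase C, changed by -0.84 in DIEC colon and by 0.23 in F/F colon (difference -1.07 ± 0.14 SE, adjusted p = 0.0013). Kcnn4, which fell in DIEC colon, was at 968, 1044, 1036 and 1066 and at 1096, 745, 1119 and 1242 in F/F colon (difference -1.34 ± 0.18 SE, adjusted p = 0.0016). The DIEC DSS libraries were the lowest of the study for it, below the other 12. For Krt36 the F/F change was 0.09 against 3.35 in DIEC colon (difference 3.26 ± 0.48 SE, adjusted p = 0.0049). For Cxcl1 it was -0.02 against 2.32 (difference 2.35 ± 0.36 SE, adjusted p = 0.0038), and for Tnf 0.38 against 1.97 (difference 1.59 ± 0.30 SE, adjusted p = 0.018). Among the genes that fell more in DIEC colon were Ces1e (difference -1.95 ± 0.26 SE, adjusted p = 0.0013), Mlxipl (difference -1.12 ± 0.16 SE, adjusted p = 0.0024), Hmga2 (difference -2.26 ± 0.33 SE, adjusted p = 0.003), Otc (difference -1.85 ± 0.29 SE, adjusted p = 0.0049) and Cftr (difference -1.38 ± 0.23 SE, adjusted p = 0.013), for which the F/F changes were -0.55, -0.79, -0.66, -2.52 and -1.10. The differences of Lbp, Prdm1, Plch2, Kcnn4, Ces1e, Mlxipl and Hmga2 were called under all 26 alternatives, with adjusted p of at most 0.0026, 0.0039, 0.0058, 0.0076, 0.0083, 0.009 and 0.024. That of Tnf was lost without FF_naive 2 (adjusted p = 0.051), without FF_naive 3 (adjusted p = 0.051) and with voom (adjusted p = 0.082). Voom also ended the calls of Krt36 (adjusted p = 0.053) and Otc (adjusted p = 0.086). That of Cxcl1 held under the 25 alternatives that gave it an adjusted p, with DESeq2 giving none. Nxpe2, of a family with no settled role in the colon, was at 3024, 4381, 2089 and 1879 in DIEC naive and 217, 154, 215 and 228 in DIEC DSS libraries, while F/F libraries held 7789, 5909.5, 4284 and 5783 with water and 5116, 2315, 5155 and 4958 with DSS (difference -3.25 ± 0.44 SE, adjusted p = 0.0059). By contrast, the falls of Lgr5, Top2a and Nox1, larger in DIEC than in F/F colon in these libraries (-3.41, -2.72 and -3.59 in F/F), did not differ between genotypes by this test (adjusted p = 0.53, 0.59 and 0.25). A p above the threshold does not show that they were alike. The intervals of the differences, as difference ± SE, were -1.43 ± 0.90, -0.76 ± 0.54 and -1.86 ± 0.68.

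**Figure D4:**
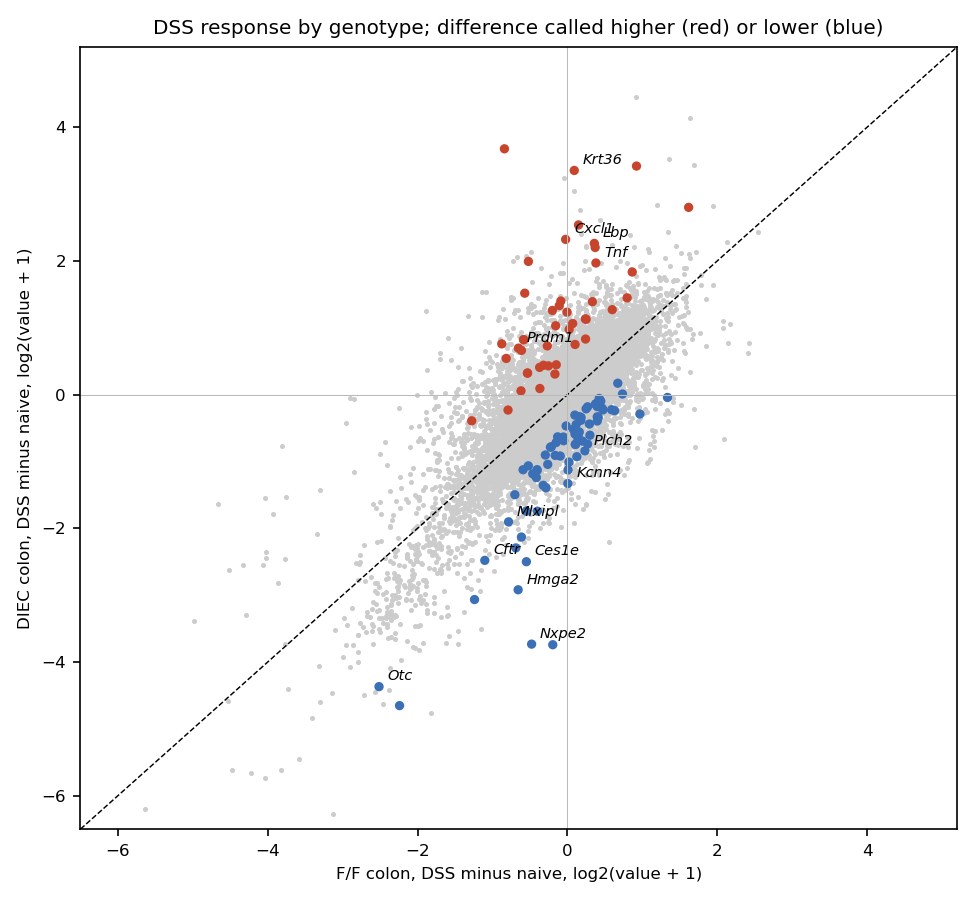
Change with DSS in F/F colon (x axis) against DIEC colon (y axis), log2(value + 1), for the 18267 genes tested (grey), with the 116 called for a difference between genotypes in colour and some of those named in the text labelled. The dashed line marks equal changes, and the pancreatic genes at the far lower left are beyond the limits of the axes.

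**Figure D5:**
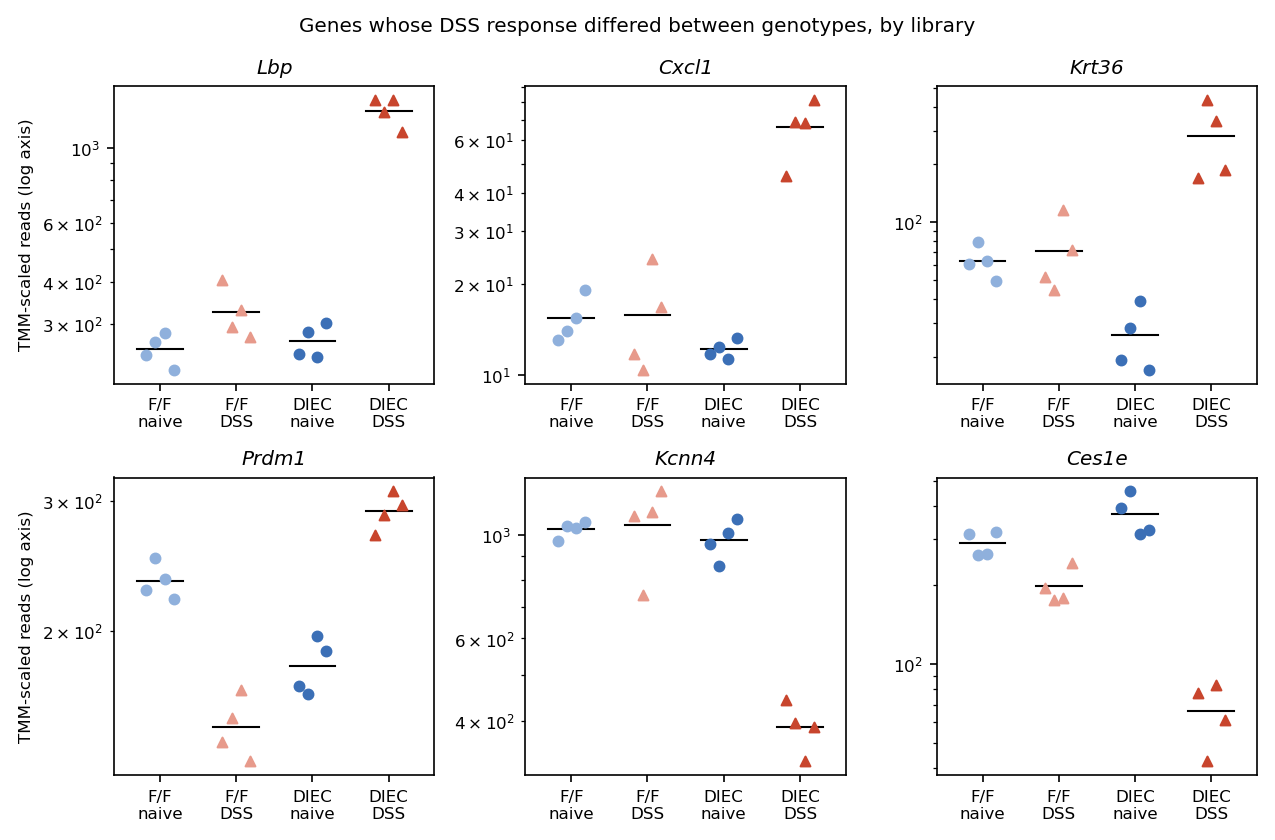
TMM-scaled reads (log axis) of 6 genes in the 4 libraries of each of the 4 groups, with a bar at the group mean. Lbp, Cxcl1 and Krt36 are highest in the DIEC DSS libraries, Prdm1 moves in opposite directions, and Kcnn4 and Ces1e are lowest in DIEC DSS libraries.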

How the data were processed

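RNA of 3 pooled mice per library was sequenced in 16 libraries. The authors aligned reads with STAR 2.2.0c and counted them with HOMER 4.9, per the submitters' processing notes, over all exons of mm9 gene models with the strand option, per the file headers. The notes name mm10, but only 5.6% of genes lay within 1000 bases of their GRCm38 position, so table coordinates are given as mm9. The deposited signal is reads divided by 1 factor per library. Dividing by it gave whole reads for 100% of values (within 0.01 of a read) in 15 libraries, not in FF_DSS 1, which was left out of the count tests. The deposited log2 fold change and p-value columns are the authors' own. The labels do not say whether the TruSeq kit keeps strand, so overlapping and antisense genes are uncertain.

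Values were divided by TMM factors (edgeR 4.0.16). The 18267 of 24421 genes that reached a value of 1 in 4 libraries were kept. limma 3.58.1 (trend, robust) was fitted in R 4.3.3 to log2(value + 1) of all 16 libraries, with a mean per group and Benjamini-Hochberg adjustment. The steps were also run on simulated counts in which few genes changed, as many up as down. That differs from these data, so the run does not bear on the choice of scale. Alternatives were the deposited scale, DESeq2 size factors, other pseudocounts and filters, edgeR, DESeq2 1.42.0 and voom on recovered reads, a replicate block, a fold minimum, the 8 DIEC libraries alone, and each library left out. On recovered reads, edgeR called 9261, DESeq2 9245 and voom 9173 genes for DSS in DIEC colon.

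The 56 gene lists and the comparison were chosen with earlier results of these data known. Named genes were Ncor1, the 15 largest rises and falls called on both scales without overlap and with a mean of at least 20, up to 8 members of each list by smallest adjusted p, and the 15 smallest adjusted p of the difference between genotypes. Lypd8, Tgm3, Slpi, Noxo1, Duoxa2, Duox2, Hmox1, Mcm5, Mcm6, Cldn8, Muc2, Otc, Cps1, Ptprc, Nxpe2 and Ngp fall outside that rule and were chosen after their values were seen.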

Additional observations from a re-analysis of the deposited data

Results flagged for a closer look

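Chance alone sets a sample apart by the spacing rule used here in about 1 in 20 groups of 4. In the naive group, DIEC_naive 4 lay apart from the others for Prdx6 (136552 scaled reads, high), Cftr (3513, low) and B3gnt6 (425.9, low). DIEC_naive 2 did so for Axin2 (393, low), Ly6a (11489, high) and the mean log2 level of the neutrophil list (0.09, high), DIEC_naive 1 for Duoxa2 (398.1, low) and DIEC_naive 3 for Adgre1 (424.3, low). In the DSS group, DIEC_DSS 2 lay apart for Irf7 (11368, high), Reg4 (420, low) and the mean log2 level of the smooth muscle list (0.25, low). DIEC_DSS 1 did so for Ptch1 (376.2, high), DIEC_DSS 3 for Tff3 (68730, high) and DIEC_DSS 4 for Slc2a1 (8991, high). Each of these genes kept its call without that library, except Irf7, as given above.

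The effect of DSS differed between genotypes, by limma's interaction term, for 24 of the genes named. As log2 differences, DIEC minus F/F, it was higher in DIEC colon for Cxcl2 (4.52, adjusted p = 0.03), Krt36 (3.26, 0.0049), Cxcl5 (2.5, 0.04), Cxcl1 (2.35, 0.0038), Lbp (1.9, 2.8e-05), Socs3 (1.83, 0.029), Tnf (1.59, 0.018), Prdm1 (1.35, 0.00015), Cpn2 (1.18, 0.033), Tac1 (0.97, 0.038), Muc13 (0.89, 0.016), Zc3h12a (0.67, 0.035) and Pyy (0.65, 0.041). It was lower for Nxpe2 (-3.25, 0.0059), Neurog3 (-2.41, 0.029), Hmga2 (-2.26, 0.003), Ces1e (-1.95, 0.0013), Otc (-1.85, 0.0049), Cps1 (-1.83, 0.029), Cftr (-1.38, 0.013), Kcnn4 (-1.34, 0.0016), Mlxipl (-1.12, 0.0024), Plch2 (-1.07, 0.0013) and St6galnac2 (-0.8, 0.0024).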

How the results depend on the processing

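All 27 alternative fits kept the count of 9384 genes called for DSS in DIEC colon within 1.5-fold, and requiring a fold of at least 1.5 left 4739. Leaving out each library gave 8646 to 9412. The 116 genes with a difference between genotypes became 664 on the deposited scale (53 higher, 611 lower), 66 with edgeR, 366 with DESeq2 and 59 with voom, and 51 to 318 with each library left out. The Ncor1 change of -0.012 was -0.262 on the deposited scale (adjusted p = 0.0042), 0.001 with DESeq2 (adjusted p = 0.99) and -0.032 to 0.034 with each library left out, turning positive without DIEC_naive 3 (0.018) or DIEC_DSS 3 (0.034). Noxo1 changed sign on the deposited scale (-0.166), and Ptprc with edgeR (0.157), DESeq2 (0.161) and without DIEC_DSS 3 (from -0.81 to 0.241 with each library left out), none of them called. Of the 90 genes of the text called for DSS, 88 held under all these fits, the exceptions being Duox2 and Irf7. The difference between genotypes was lost under 16 of 26 alternatives for Pyy, 15 for Cxcl5, 11 each for Zc3h12a, Tac1 and Cps1, 9 for Cpn2 and 8 for Socs3, and under 9 of 25 for Cxcl2 and 6 of 25 for Neurog3. The cause was not tested.

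Samples that share a number did not deviate together (correlations of 0.038, -0.106, -0.034 and -0.035), so the numbers were not taken as pairs. With the replicate block, 9318 genes were called for DSS and 134 for the difference. The calls of Duox2 (adjusted p = 0.065) and of the difference of Cpn2 (0.052), Cxcl5 (0.1), Cftr (0.084), Pyy (0.075), Cps1 (0.081) and Nxpe2 (0.052) were then lost.

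Each library pools 3 mice, so variation between animals was not measured. In genes near 0 with DSS, such as Neurog3, A4gnt and Cxcl2 before DSS, few reads limit the fold. Immune list counts change without DIEC_DSS 2 or DIEC_DSS 3, and levels of muscle, pancreatic and adipocyte genes differ between libraries. The shares of muscle, mucosa and tissue outside the colon were not measured apart from such genes.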
